A study of Homo sapiens with 2 samples.

Results

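Cells take up and exchange amino acids through solute carriers, membrane proteins that are grouped in SLC families by sequence. Genes of the families SLC1, SLC3, SLC6, SLC7, SLC36, SLC38 and SLC43, as named in the array files, were compared between Ca9-22 cells carrying DLEU1 and control cells. The symbol rule (SLC1A, SLC3A, SLC6A, SLC7A, SLC36A, SLC38A or SLC43A followed by digits only) gave 59 of the 43317 gene names on the arrays, covered by 88 probes. The symbol rule uses no expression value, although these families were chosen with earlier results of the same arrays known. Ca9-22 is a line of OSCC (oral squamous cell carcinoma) cells, and DLEU1 is a long noncoding RNA. The DLEU1 vector cells were infected with a lentivirus holding full-length DLEU1 cDNA, and the control vector cells with the same virus without an insert. Both lines were kept in RPMI-1640 with 10% fetal bovine serum and selected in 6 mg/ml blasticidin for 2 weeks, so both groups carried a vector and had gone through selection. RNA was labelled with Cy3, and each group had 1 Agilent array. No source used here states whether the selected cells were a pool or a single clone.

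With 1 array per group, no difference has a replicate check, and neither a test nor an SD between cultures could be given. Levels are log2 signals relative to the 75th percentile of the probes on the same array, and a difference is the DLEU1 vector minus the control vector on the log2 scale. A gene is described as higher or lower in these arrays, not as changed by DLEU1, and a fold of 2 or more was counted as a call. Fewer cells of a kind and less RNA per cell cannot be told apart in such samples. Levels of different genes are not set against each other, since probes differ in brightness for the same amount of RNA.

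A total of 20246 gene names were detected (well above background) on both arrays, and their median difference was -0.070. The DLEU1 probe on chromosome 13 from 50679272 to 50679331 (hg19) had a level of 3.17 on the control array and 5.91 on the DLEU1 array, 6.67-fold higher, and the other DLEU1 probes, both dimmer, differed by 0.85 and 0.54. The SD of the log2 difference between spots of a replicated probe was 0.080, and different probes of one gene differed with a pooled SD of 0.47 over 4674 genes. A strip of the DLEU1 vector array held an excess of dim spots, with 29.4% of the probes lit on the control array 2-fold lower there against 13.4% outside. It held 1 of the 88 transporter probes, a dimmer probe of SLC38A6. All 8 squamous markers sought were detected on both arrays (KRT5, KRT14, KRT6A, KRT17, TP63, CDH1, EPCAM and SFN), and their summed linear signal relative to the 75th percentile was 954 on the control array and 2018 on the DLEU1 array. The keratins were higher on the DLEU1 array, by 2.91 for KRT6A and 2.10 for KRT5, whereas EPCAM differed by -0.78 and SFN by 0.0015. Of 6 fibroblast markers, COL1A1 and PDGFRB were detected on both arrays, LUM with the DLEU1 vector only, and COL1A2, COL3A1 and DCN on neither, with a summed signal of 1.55 and 22.4. COL1A1 differed by 3.99 and PDGFRB by -0.33. Of the leukocyte markers, PTPRC and CD14 were detected, CD3E was not and LYZ was not analysed here (0.601 and 0.524), and of the endothelial markers VWF and CDH5 were detected and PECAM1 and KDR were not (0.460 and 2.76). VWF differed by 3.70 and CDH5 by -0.59. The part of these shifts in the transporter values was not tested.

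The families work in different ways. SLC1 carriers move glutamate or small neutral amino acids with sodium. SLC7 light chains are mostly exchangers that need an SLC3 heavy chain to reach the membrane, whereas the cationic SLC7 carriers work alone. SLC6 carriers use sodium and chloride, and besides amino acids they move neurotransmitters, creatine and taurine. SLC36 carriers move small amino acids with protons, SLC38 carriers move glutamine and other neutral amino acids with sodium, and the SLC43 carriers of amino acids are facilitators of large neutral ones. Several of these genes are known targets of the transcription factor ATF4, which is translated when amino acids run short and binds the C/EBP-ATF response element.

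Most of the transporter genes detected on both arrays differed by less than 1.5-fold between the vectors. Of the 59 genes, 33 were detected on both arrays, 1 with the DLEU1 vector only, 1 with the control vector only and 24 on neither. At 2-fold or more, 2 of the 33 (6.06%) were higher with the DLEU1 vector, the glycine carrier SLC6A9 and the neutral amino acid exchanger SLC7A8, where the share over all 20246 genes was 9.18%. A single gene, SLC6A15, was at least 2-fold lower (3.03%), where the share over all genes was 9.78%. The split of 2 higher and 1 lower was 2 and 5 when the arrays were scaled on spike-in probes, and 2 and 0 when the 75th percentile was taken over detected probes. The share of all genes at least 2-fold lower was 21.4% with spike-in scaling and 7.78% with the scaling over detected probes.

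The 33 differences had a median of -0.12 and a middle range from -0.38 to 0.33, and 13 were above 0 and 20 below. Over all genes detected on both arrays the median was -0.070 and the middle range ran from -0.52 to 0.41. Of these genes, 9278 were above 0 and 10968 below. A total of 24 of the 33 (72.7%) lay within 1.5-fold either way, against 59.5% of all genes. The median size of the difference, sign left aside, was 0.38 for the transporters and 0.47 for all genes. The scanning software gives each signal an error of its own, which came to between 0.20 and 0.38 for a difference. By that measure 6 genes (18.2%) lay more than 2 errors above 0 and 7 (21.2%) more than 2 errors below, against 23.6% and 28.8% of all genes, and 11 (33.3%) lay within 1 error, against 25.9% of all genes. This error covers the signal on the array, not the culture.

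**Figure D1:**
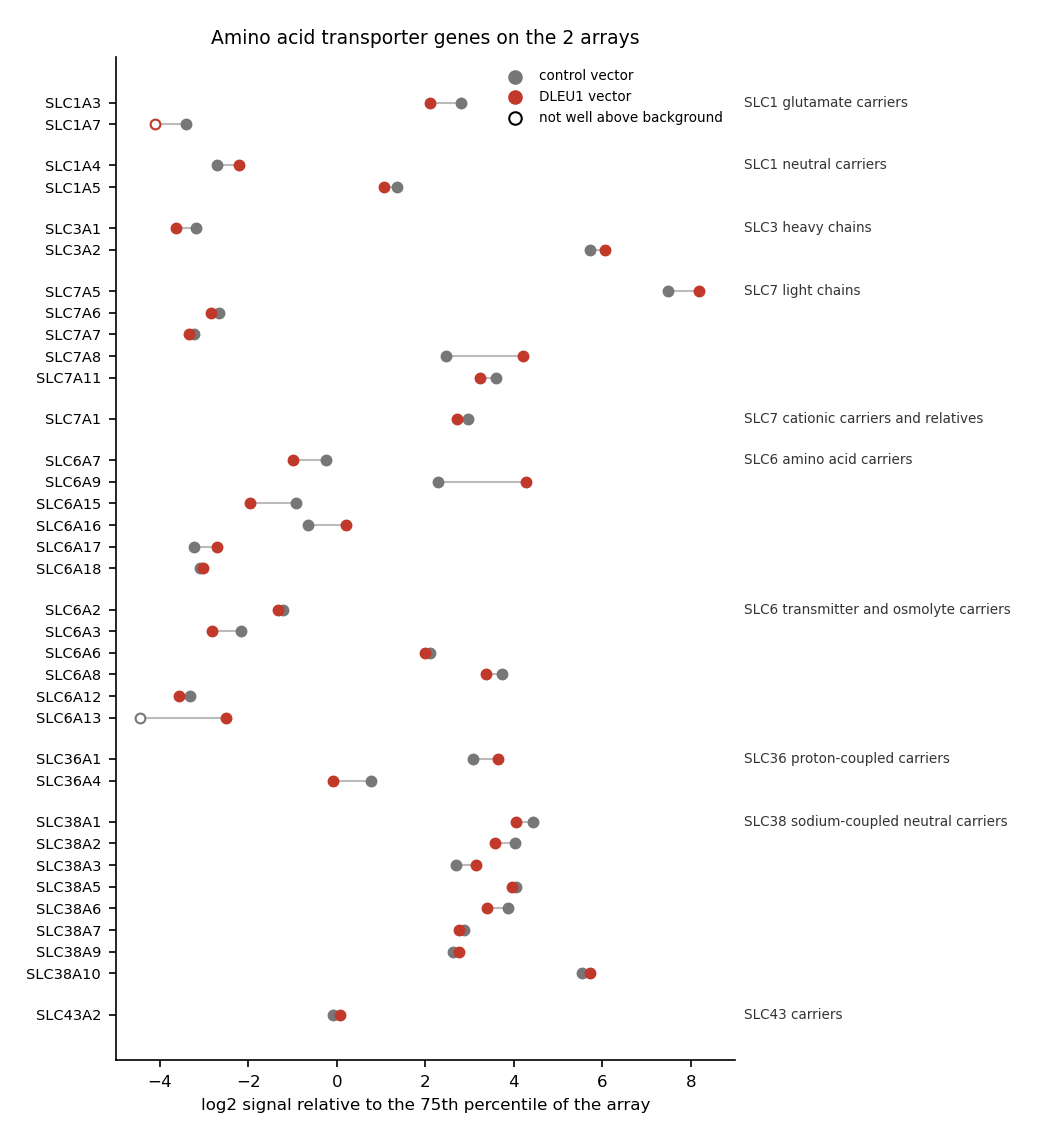
Level of each transporter gene detected on at least 1 array, as log2 signal relative to the 75th percentile of its array, with the control vector in grey and the DLEU1 vector in red, 1 array each. Open points were not well above background. SLC6A9 and SLC7A8 have the widest gaps among genes with both points filled, and most pairs of points lie close together.

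**Figure D2:**
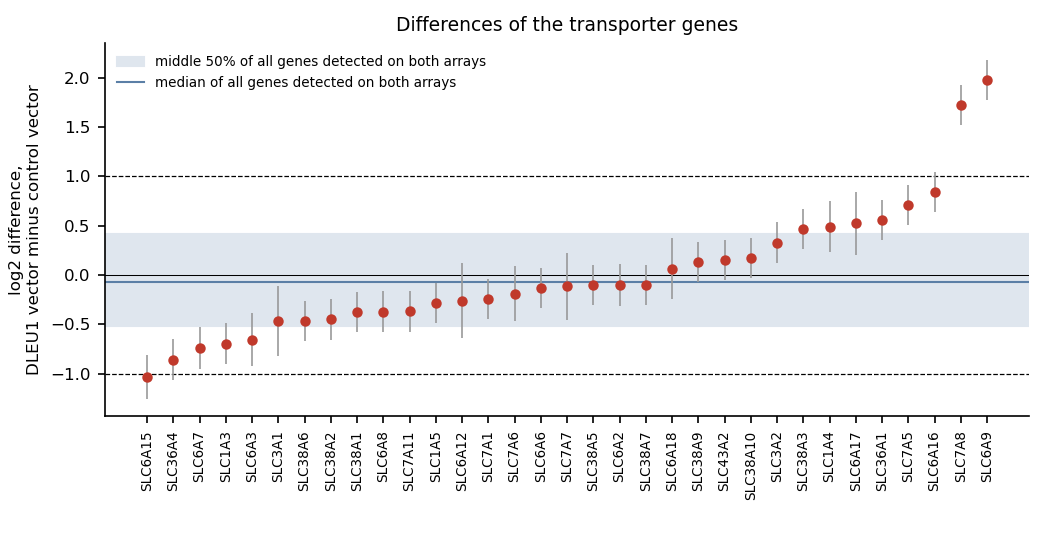
Difference in log2 signal (DLEU1 vector minus control vector) of the 33 transporter genes detected on both arrays, in rising order, with bars of 1 software error. Dashed lines mark 2-fold, and the band and blue line mark the middle range and the median of 20246 genes. SLC6A9 and SLC7A8 lie above the upper dashed line and SLC6A15 just below the lower one.

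Because ATF4 targets are found among these genes, RefSeq promoters (GRCh38.p14, 250 bases before to 50 bases after the gene start) were searched for TGATGNAA and, on the opposite strand, TTNCATCA, core letters of the C/EBP-ATF response element. All 59 symbols matched RefSeq, and 44 had a promoter. The letters were found in 6 of the 44 (13.6%), where 1217 of 27305 genes (4.46%) held them. Some genes had several promoters, 66 in all for the 44 genes and 35116 for the 27305. The transporter genes thus had more promoters searched per gene, and shares per promoter were not computed. All 6 were among the 25 genes with a promoter that were detected on both arrays. The 30 bases around each match are given on the strand of the gene, 5′ to 3′, with the match in capitals, to show where the element lies and how it differs.
SLC1A3: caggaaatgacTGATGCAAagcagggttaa
SLC1A4: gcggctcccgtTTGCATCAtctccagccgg
SLC1A5: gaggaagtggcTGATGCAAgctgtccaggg
SLC3A2: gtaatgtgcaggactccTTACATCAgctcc
SLC7A1: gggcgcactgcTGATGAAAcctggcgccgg
SLC38A1: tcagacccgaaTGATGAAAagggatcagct
The windows lie at chr5:36596357-36596386 (SLC1A3, plus strand), chr2:64989381-64989410 (SLC1A4, plus), chr19:46784893-46784922 (SLC1A5, minus), chr11:62881719-62881748 (SLC3A2, plus), chr13:29595663-29595692 (SLC7A1, minus) and chr12:46266502-46266531 (SLC38A1, minus). The match began 220 bases before the start in SLC1A3, 97 before in SLC1A5, 7 before in SLC1A4 and 4 before in SLC38A1, and 7 bases after it in SLC7A1 and 37 after it in SLC3A2. Differences of these 6 genes ran from -0.69 for SLC1A3 to 0.49 for SLC1A4, 4 below 0 and 2 above, SLC3A2 turning negative with spike-in scaling. Only SLC1A3 reached 2-fold under any setting, with spike-in scaling. A match describes letters and is not evidence of binding. Promoters of genes such as SLC1A2, SLC3A1, SLC6A2, SLC6A3, SLC6A6, SLC6A12, SLC6A15, SLC7A2, SLC7A3, SLC7A4, SLC7A11, SLC7A13, SLC38A3 and SLC43A3 were not analysed here.

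Among the heavy chains, SLC3A2 encodes the 4F2 antigen heavy chain (CD98), the partner of most SLC7 light chains. Its level was 5.73 on the control array and 6.06 on the DLEU1 array, a difference of 0.33 (1.26-fold) that turned to -0.069 with spike-in scaling. SLC3A1 encodes the heavy chain of the cystine and dibasic amino acid exchanger of kidney and gut. A single probe of its 4 was detected, at -3.17 and -3.64, a difference of -0.47 with a software error of 0.35.

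The light chains of the large neutral amino acid exchangers gave the higher values in the SLC7 family. SLC7A8 encodes LAT2. Its probe on chromosome 14 from 23594654 to 23594713 (hg19, minus strand) was at 2.48 on the control array and 4.20 on the DLEU1 array, a difference of 1.72 or 3.30-fold with a software error of 0.20. A dimmer SLC7A8 probe at 23597229 to 23597288 was at -2.41 and -1.14, a difference of 1.27 or 2.41-fold. Both probes therefore lay past 2-fold in the same direction. Of all genes detected on both arrays, 617 (3.05%) had a difference at least as high as that of SLC7A8. SLC7A5 encodes LAT1, the leucine exchanger that is abundant in many carcinomas. Its level was 7.48 and 8.19, a difference of 0.71 or 1.63-fold, and the settings tried placed it between 0.31 and 0.997. That gene has 1 probe, on chromosome 16 from 87863907 to 87863966 (hg19, minus strand), and 14.9% of all genes were at least as high.

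The other light chains detected had differences below 0 and under 1.5-fold. SLC7A11 encodes xCT, the cystine and glutamate exchanger, and was at 3.61 on the control array and 3.24 on the DLEU1 array, a difference of -0.37. SLC7A6 and SLC7A7 encode the exchangers of cationic for neutral amino acids. The differences were -0.19 for SLC7A6 and -0.12 for SLC7A7, both within 1 software error, and both turned positive with normexp background correction. SLC7A1, the widely expressed cationic amino acid carrier, was at 2.97 and 2.72, a difference of -0.24. Nearly identical or adjacent sequences exist for some of these genes. SLC7A5P1, a pseudogene of SLC7A5, had a difference of 0.31, and SLC7A6OS, whose probe lies beside that of SLC7A6 on the opposite strand, had -0.46. A single probe of 4 for SLC7A11-AS1, the antisense gene of SLC7A11, was detected, at -2.01 and -3.11. Cross-hybridisation between such pairs was not tested.

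The SLC6 family held the widest range. Of its 10 amino acid carriers, 6 were detected on both arrays, 4 with positive and 2 with negative differences. SLC6A9 encodes GlyT1, which takes up glycine. The SLC6A9 probe on chromosome 1 from 44462162 to 44462221 (hg19, minus strand) was at 2.30 on the control array and 4.27 on the DLEU1 array, a difference of 1.97 or 3.92-fold with a software error of 0.20. A dimmer probe, whose 60 bases are split over 148 bases of genome (44466499 to 44466646), was at -2.96 and -0.66, a difference of 2.30 or 4.92-fold. Both probes of the gene lay past 3-fold. Over all genes detected on both arrays, 456 (2.25%) were at least as high as SLC6A9.

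SLC6A15 is a carrier of branched-chain amino acids and proline known from brain. Its brightest probe, on chromosome 12 from 85277524 to 85277583 (hg19, minus strand), was at -0.91 on the control array and -1.95 on the DLEU1 array, a difference of -1.03 or 2.05-fold lower. The other SLC6A15 probes did not show a difference of that size. The probe at 85266471 to 85266530 was at -2.60 and -2.90, and the probe at 85254359 to 85254418 was at -1.64 and -1.59. The brightest probe was designed on a different transcript record (NM_018057) from the others (NM_182767), and the mean over the 3 probes was -0.43, within 1.5-fold.

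The other amino acid carriers of SLC6 lay within 2-fold with the 75th percentile scaling, although SLC6A7 passed it with spike-in scaling. SLC6A16, an orphan member, was at -0.64 and 0.20, a difference of 0.84 or 1.79-fold, and 11.9% of all genes were at least as high. SLC6A7, a proline carrier of brain, was at -0.24 and -0.98, a difference of -0.74 or 1.67-fold lower. SLC6A17, a vesicular carrier of neutral amino acids, was at -3.23 and -2.71, a difference of 0.52. SLC6A18, a neutral amino acid carrier of kidney, differed by 0.064, within 1 software error, and this sign depended on the scaling.

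The SLC6 carriers of neurotransmitters, creatine and osmolytes gave differences below 0 in all 5 genes detected on both arrays, from -0.65 to -0.10, although SLC6A2 and SLC6A6 turned positive under some settings. Over all genes, 10968 of 20246 were below 0. SLC6A8 carries creatine, and its level was 3.73 on the control array and 3.36 on the DLEU1 array, a difference of -0.37. Its other probe differed by -0.29. SLC6A6, the taurine carrier, was at 2.12 and 1.99, and its other probe differed by 0.35. SLC6A3, the dopamine carrier, was at -2.16 and -2.82, a difference of -0.65 from 1 of its 2 probes. SLC6A12, which carries betaine and GABA, differed by -0.26 with a software error of 0.38. Probes of SLC6A10P, a pseudogene of SLC6A8, differed by -0.36 and -0.44, close to the values for SLC6A8 itself.

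SLC6A2, the noradrenaline carrier, depended on the probe. The probe on chromosome 16 from 55734158 to 55734217 (hg19, plus strand) was at -1.22 and -1.32, a difference of -0.10. The probe at 55737624 to 55737683 was at -2.71 on the control array and -0.77 on the DLEU1 array, a difference of 1.94 or 3.83-fold. The rule of the brightest probe therefore gave SLC6A2 no call, and the mean over both probes was 0.92. SLC6A13, a GABA carrier, was detected with the DLEU1 vector only, by 1 of its 2 probes. That probe, on chromosome 12 from 368280 to 368339 (hg19, minus strand), was at -2.51 there and not well above background with the control vector. Its level was 2.996-fold above the lowest signal detected on the control array (-4.09), and the software error of its difference was 0.54. That lowest signal is no strict limit, since an SLC6A5 probe not well above background lay at -3.75 on that array. The log2 bound was 1.58 and shrank to 0.46 with normexp background correction and its offset of 50. The other probe was detected on neither array.

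In the SLC1 family the differences went both ways. SLC1A3 encodes a high-affinity glutamate carrier best known from glia. Its level was 2.81 on the control array and 2.11 on the DLEU1 array, a difference of -0.69 or 1.62-fold lower, and its other probe gave -0.63. SLC1A5, the sodium-dependent glutamine exchanger ASCT2, was at 1.36 and 1.07, a difference of -0.28. SLC1A4, a carrier of alanine, serine and cysteine, was at -2.70 and -2.21, a difference of 0.49. The promoters of SLC1A3, SLC1A4 and SLC1A5 all held the response element letters, and their differences had both signs. SLC1A7, a glutamate carrier of retina, was detected with the control vector only, by 1 of its 2 probes, at -3.41. Its level was 1.56-fold above the lowest signal detected on the DLEU1 array (-4.04), and the software error of its difference was 0.46. The log2 bound of SLC1A7 was 0.64, and it was 0.10 with normexp.

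Of the 11 SLC38 genes, 8 were detected on both arrays, and all 8 lay within 1.5-fold with the 75th percentile scaling. Of these, 3 were above 0 and 5 below. With spike-in scaling 1 was above and 7 below, and with the 75th percentile over detected probes 5 were above and 3 below, so the direction of this family depended on the scaling. SLC38A1 and SLC38A2 are glutamine and alanine carriers of the plasma membrane, the latter known to be induced by amino acid shortage. SLC38A1 was at 4.43 on the control array and 4.05 on the DLEU1 array, and SLC38A2 at 4.04 and 3.59. The second probe of SLC38A1 differed by -0.44, near the first, and that of SLC38A2 by -0.019. SLC38A3, a glutamine carrier of liver and brain, was at 2.69 and 3.15, but only 1 of its 5 probes was detected.

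SLC38A6 differed by -0.47, -0.44 and -0.36 on its 3 probes, the second of them in the damaged strip. Its probes thus lay close together. SLC38A5 differed by -0.10 and SLC38A7, a lysosomal glutamine carrier, by -0.098. SLC38A9, the lysosomal carrier that signals arginine to mTORC1, was at 2.63 and 2.76, a difference of 0.13. SLC38A10 was at 5.54 and 5.72 on its brightest probe, a difference of 0.18, while another probe gave -0.72. SLC38A5, SLC38A7, SLC38A9 and SLC38A10 changed sign under at least 1 other setting, and SLC38A6 did not.

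SLC36A1, the lysosomal and intestinal proton-coupled carrier, and SLC36A4 differed in opposite directions. SLC36A1 was at 3.08 on the control array and 3.64 on the DLEU1 array, a difference of 0.56 or 1.47-fold. SLC36A4 was at 0.77 and -0.089, a difference of -0.86 or 1.81-fold lower, on the probe from 92880933 to 92880992 of chromosome 11 (hg19, minus strand). Its dimmer probe at 92887327 to 92887386 was at -0.22 and -1.51, which is 2.45-fold lower. The mean of both probes was past 2-fold, so averaging probes called SLC36A4 in place of SLC6A15. SLC43A2, a facilitator of large neutral amino acids, was at -0.075 and 0.078, a difference of 0.15 that spike-in scaling turned to -0.24.

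The genes detected on neither array included SLC1A1, SLC1A2, SLC1A6, SLC6A4, SLC6A5, SLC6A11, SLC6A14, SLC6A19, SLC6A20, SLC7A2, SLC7A3, SLC7A4, SLC7A9, SLC7A10, SLC7A13, SLC7A14, SLC36A2, SLC36A3, SLC38A4, SLC38A8, SLC38A11, SLC43A1 and SLC43A3. Their probes were not well above background, which gives no level. Carriers known mainly from brain, retina, kidney or gut made up many of them. Examples are the serotonin carrier SLC6A4, the glycine carrier SLC6A5 of neurons, the neutral amino acid carrier SLC6A19 and the cystine exchanger light chain SLC7A9. Other carriers known from such tissues were detected on both arrays, among them SLC3A1, SLC6A7, SLC6A15 and SLC6A18.

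Where a gene had several detected probes, their differences could be set side by side. This was the case for 12 genes. All detected probes had the same sign in 8 of them and opposite signs in 4, SLC6A2, SLC6A6, SLC6A15 and SLC38A10. The pooled SD between probes of a transporter gene was 0.51, close to the 0.47 over 4674 genes and several times the spot SD of 0.080. The genes whose probes agreed at 2-fold or more were SLC6A9 and SLC7A8.

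**Figure D3:**
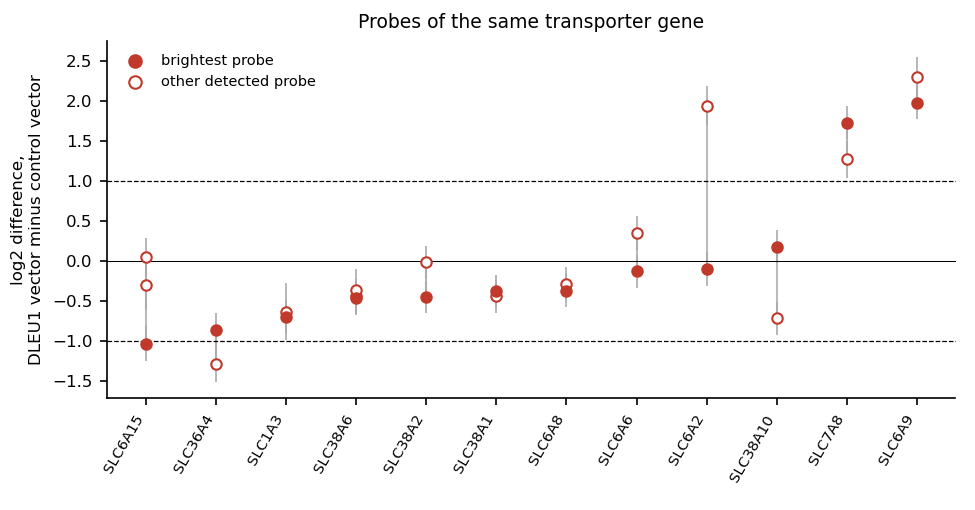
Difference in log2 signal (DLEU1 vector minus control vector) of each detected probe of the 12 transporter genes with several detected probes, with bars of 1 software error. Filled points are the brightest probe, whose value stands for the gene, and dashed lines mark 2-fold. Both probes of SLC6A9 and of SLC7A8 lie above 1, and those of SLC6A2 lie at -0.10 and 1.94.

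Genes of the amino acid response, which ATF4 drives, lay on both sides of 0. Of 22 listed genes 21 were detected on both arrays, with a median of -0.18, 8 above 0 and 13 below, with 4 past 2-fold upward (19.0%) and 2 past 2-fold downward (9.52%), where the shares over all genes were 9.18% and 9.78%. With spike-in scaling the median was -0.57 and these counts were 1 and 7, where the shares over all genes were 5.01% and 21.4%. ATF4 itself was at 8.12 on the control array and 8.13 on the DLEU1 array. ASNS, asparagine synthetase, was at 5.06 and 4.21, a difference of -0.85. The highest differences were those of the stress-response gene NUPR1 (3.87), the mTORC1 inhibitor DDIT4 (1.18) and the transcription factor ATF3 (1.13). At the other end were STC2 (-2.20), ATF5 (-1.73) and the serine enzyme SHMT2 (-0.98).

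Genes of amino acid sensing and of mTORC1 and its regulators were likewise spread around 0. Their median was -0.078 over 25 of 26 genes, which turned positive with 3 of the other scalings. The values ran from SESN3 (2.02), a sestrin, CASTOR1 (1.71), the arginine sensor, and the GTPase RRAGB (0.86) down to MIOS (-0.83), RHEB (-1.16) and RPTOR (-1.18), the last being the defining subunit of mTORC1. In all, 2 of these genes passed 2-fold upward and 2 downward, 8% each against 9.18% and 9.78% of all genes. With spike-in scaling 2 and 8 did, where the shares over all genes were 5.01% and 21.4%.

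The enzymes of glutamine, glutamate and proline metabolism had a median of -0.47 over 12 of 13 genes, 9 of them below 0, where 10968 of all 20246 genes were. None was at least 2-fold lower, against 9.78% of all genes. With spike-in scaling 4 of the 12 were, against 21.4% of all genes. That scaling put the median of the list at -0.87 and that of all genes at -0.47, while loess put the list at -0.21. The 2 genes past 2-fold (16.7% of the list, 9.18% of all genes) were higher, PRODH, the first enzyme of proline breakdown (0.40 on the control array and 2.53 on the DLEU1 array), and GLUL, glutamine synthetase (2.42 and 4.15). GLS2, a glutaminase, differed by 0.079. The lowest were OAT (-0.92), GPT2 (-0.71) and GOT1 (-0.66), which move amino groups between amino acids and keto acids.

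All 9 genes of cystine use and glutathione were detected, with a median of 0.16 that reversed with spike-in scaling to -0.24. GGT1, which cleaves glutathione outside the cell, differed by 0.96, the xCT partner CD44 by 0.70 and GPX4 by 0.37. CHAC2, which degrades glutathione, was at 2.06 and -0.028, a difference of -2.09, followed by GSR (-0.92) and GSS (-0.69). GCLM, a subunit of the enzyme that starts glutathione synthesis, differed by -0.34. Among other amino acid carriers and partner proteins, 11 of 16 genes were detected, with a median of -0.19. The mitochondrial carrier SLC25A29 differed by 0.86, CLTRN, the kidney partner of SLC6A19, by 0.58, and the lysosomal carrier SLC15A4 by 0.15, and the lowest were SLC25A15 (-1.12), SLC25A38 (-0.69) and SLC66A1 (-0.52).

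**Figure D4:**
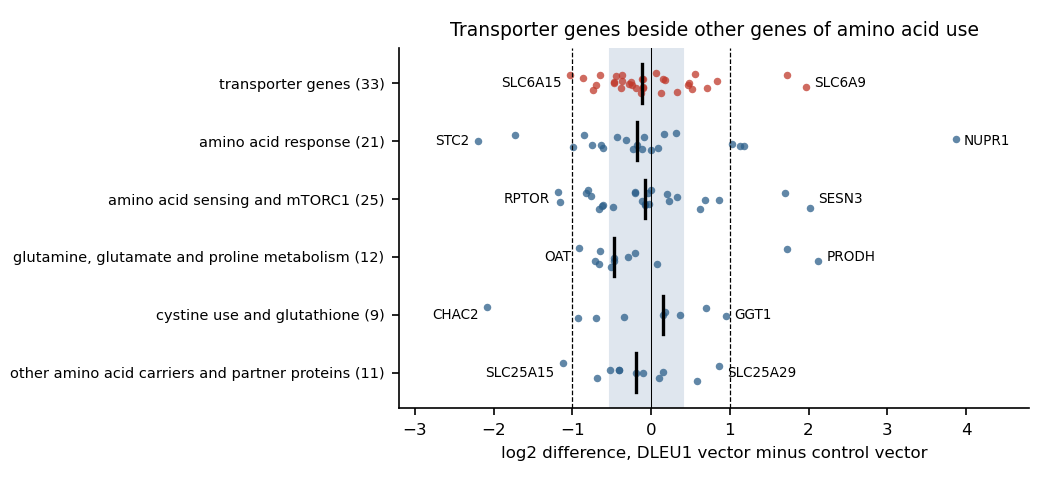
Difference in log2 signal (DLEU1 vector minus control vector) of the transporter genes (red) and of 5 lists of genes of amino acid use (blue), 1 point per gene detected on both arrays, with the number of genes in parentheses. Black bars are medians, dashed lines 2-fold, and the band is the middle range of all genes. All 6 medians lie within the band, and the medians of the sensing and the cystine list changed sign under other scalings.

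The values were read under other settings of the same arrays. SLC6A9 stayed between 1.57 and 2.19 and SLC7A8 between 1.33 and 1.94, so both were past 2-fold in each of them. SLC6A15 ran from -1.43 to -0.43 and SLC36A4 from -1.26 to -0.70. Spike-in scaling shifted all genes alike by -0.40, and with it SLC1A3, SLC6A3, SLC6A7 and SLC36A4 joined SLC6A15 at 2-fold lower. Across the settings 22 of the 33 genes kept their sign, and the 11 that did not had differences between -0.19 and 0.33.

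**Figure D5:**
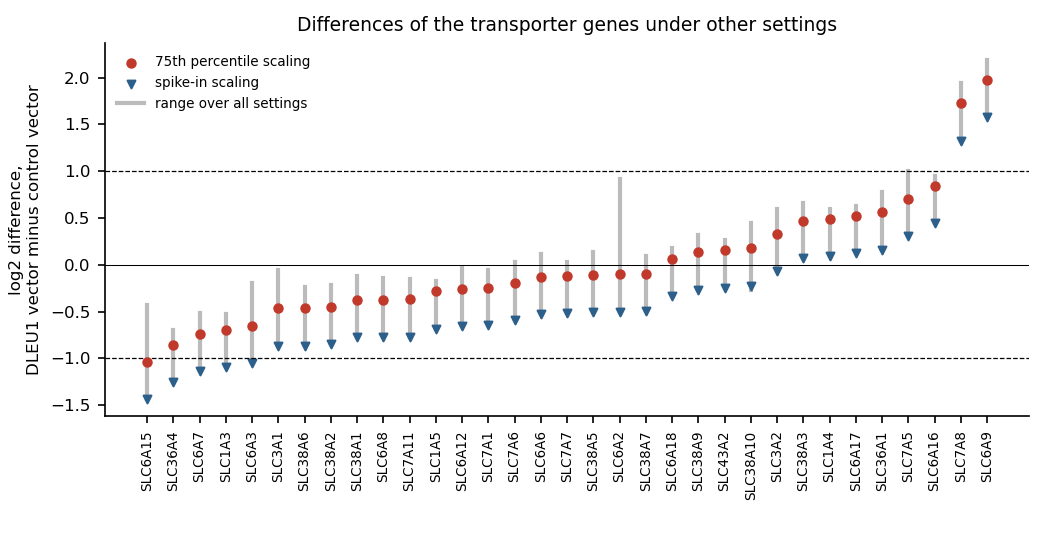
Difference in log2 signal (DLEU1 vector minus control vector) of the 33 transporter genes with 75th percentile scaling (red) and spike-in scaling (blue), with grey bars for the range over the settings tried. Dashed lines mark 2-fold. The whole bars of SLC6A9 and SLC7A8 lie above 1, and the bar of SLC6A2 is the longest and crosses 0.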

How the data were processed

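Gene expression was measured in Ca9-22 cells carrying a control vector or a DLEU1 vector, 1 array each (100 ng RNA). The deposited files hold intensity values from Agilent Feature Extraction 10.7.3.1, background-subtracted and detrended per the file headers. The authors analysed the arrays in GeneSpring. The deposited series values are the same intensity, within 0.497%. Control spots and outlier spots were left out, spots of a probe were averaged, and log2 values were scaled to the 75th percentile of each array. A probe was detected when over 50% of its spots were well above background, and a gene took its brightest probe detected on both arrays. Calls were made at 2-fold. For a probe detected on 1 array, the bound set its signal against that of the other array, or against the lowest detected signal there if higher. Undetected probes can lie above that lowest signal, so the bound is not a strict minimum. Probe positions are hg19, from the files. Their exon or UTR annotation was not analysed here. Transporter genes were all named, with values where detected. From each other list the 3 highest and 3 lowest were named, with ATF4, ASNS, GLUL and GCLM. Some genes of the rules and lists are not reported here, and those of the other lists were left out of their counts. The genes and lists were chosen with earlier results of these data known. Array number limits the precision. Python 3.11.15, R 4.3.3 and limma 3.58.1 were used, and the scripts were tested on simulated data. Alternatives were other scalings, normexp (offset 50), the series values, filters, thresholds of 1.5-fold and 3-fold, the mean of probes and leaving out the damaged strip.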

Additional observations from a re-analysis of the deposited data

How the results depend on the processing

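The number of transporter genes at least 2-fold higher was 2 under each scaling, background correction and probe rule tried, and 4 without the filter on dim probes or at a threshold of 1.5-fold. The share of all genes higher lay between 5.01% and 10.9% in the former settings. It was 9.77% without the filter, which kept all 59 transporter genes, and 18.4% at 1.5-fold. The number at least 2-fold lower was 1, and it was 0 when scaled to detected probes only, with normexp, with a signal of at least 100 and at 3-fold, 2 without the filter, and 5 with spike-in scaling and at 1.5-fold. Over all genes the shares lower were 7.78%, 6.98%, 10.2% and 3.31% in the settings with 0, in that order. They were 8.79% without the filter, 21.4% with spike-in scaling and 22.0% at 1.5-fold. The gene called lower with the mean of the probes was SLC36A4, not SLC6A15. The median difference of -0.12 was -0.23 when arrays were scaled to their medians, -0.0038 when scaled to the 75th percentile of detected probes only, -0.51 with spike-in scaling and 0.031 without the filter. The 3 scalings shifted the median of all genes by -0.11, 0.11 and -0.40, which is built into the scaling. The median of all genes was 0.039 without the filter and -0.070 with it. Without the filter, SLC6A13 and SLC7A4 joined the higher genes and SLC6A5 the lower ones. Of 386 values of single genes under the alternatives, 220 stayed within the spot SD of their first value, 166 moved further, and 21 values of 11 genes changed sign, none of them a called value. The bounds of SLC6A13 and SLC1A7 were recomputed under settings chosen after seeing the data, and ran from 0.46 to 1.69 and from 0.10 to 1.03 on the log2 scale. The cause of the remaining shifts was not tested. Signal over background limits the 24 genes detected on neither array. No paired analysis was possible because each group has 1 array.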
